A study of Mus musculus with 12 samples.

Results

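Imprinted genes are read mainly from the copy inherited from the mother or mainly from the copy inherited from the father, and 33 such genes were followed through 12 Affymetrix arrays of mouse embryonic hearts. They were taken by their symbol in the platform annotation, and the list was drawn up with results of these arrays known. The genes were chosen by name: a measured value entered only as a rule for genes with several probe sets (the highest mean over the 12 arrays was to be kept), and it decided nothing, since 0 of the members had several. Of the 33 genes, 29 had a probe set of their own among the 19938 genes on the arrays, 14 of 16 maternally expressed and 15 of 17 paternally expressed. H19, Slc22a3 and Zrsr1 were not matched by symbol, and Snrpn shares its probe set with Snurf, so these were not analysed here.

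The hearts were dissected at stage E8.75 from Nkx2-5 KO, Tbx5 KO, Double KO (Tbx5 KO;Nkx2-5 KO) and WT mouse embryos, with 3 arrays, numbered as biological replicates, in each group. Nkx2-5 and Tbx5 are transcription factors of the early heart. The labels used here do not give strain, parental origin of the mutant alleles, the deleted part of either gene, the sex of the embryos or how many hearts made up an array, so p-values measure the spread between these arrays. Levels are log2 expression values as deposited, and a difference is the mean of the first-named group minus that of the other, ± its standard error (SE), with n = 3 arrays in each group. A gene was called at an adjusted p under 0.05 from limma, corrected by Benjamini and Hochberg over all 19938 genes.

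In an imprinted cluster a stretch of DNA carries methyl groups on CpG dinucleotides only on the maternal or only on the paternal copy, and that mark decides which neighbouring genes are read from which copy. Many of the proteins act on growth: Igf2, a fetal growth factor, is read from the paternal copy in the mouse, while Igf2r, the receptor that clears it, Grb10, an adaptor that dampens insulin and IGF receptor signalling, and Cdkn1c (p57), a cell cycle inhibitor, are read from the maternal copy. An expression array measures the sum of both copies, so the parental allele named beside a gene below is background and was not measured.

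The summed level of 12 cardiac muscle genes, which include Nkx2-5 and Tbx5 themselves, lay between 16.71 and 16.84 on these arrays. In Double KO against WT hearts 3 of the 12 were called higher and 2 lower, beside 9.05% and 14.4% of all genes. The lower ones were Myh6 (-0.81 ± 0.14, adjusted p = 0.00121) and Actn2 (-0.66 ± 0.15, adjusted p = 0.00696). The higher ones included Tnnt2 (0.23 ± 0.08, adjusted p = 0.046) and the Tbx5 probe set (0.54 ± 0.15, adjusted p = 0.0193). Tnnt2, cardiac troponin T, lay between 14.00 and 14.08 in Nkx2-5 KO, 14.19 and 14.26 in Tbx5 KO, 14.25 and 14.30 in Double KO and 13.98 and 14.08 in WT hearts. The Nkx2-5 and Tbx5 probe sets cannot settle the genotypes, because the deleted parts are not given. Tbx5 gave 10.73, 10.42 and 10.45 in Tbx5 KO hearts, against 10.15, 10.13 and 9.90 in WT hearts. Nkx2-5 lay between 8.72 and 9.13 in Nkx2-5 KO and 8.97 and 9.21 in Double KO hearts. It lay higher in Tbx5 KO (9.31 to 9.38) and WT hearts (9.33 to 9.36), without overlap. Against WT its difference was -0.41 ± 0.11 in Nkx2-5 KO (adjusted p = 0.0499) and -0.27 ± 0.11 in Double KO hearts (adjusted p = 0.0878). Xist, the noncoding RNA that coats and silences the inactive X, lay between 6.59 and 7.03 in Nkx2-5 KO, 11.46 and 12.32 in Tbx5 KO, 6.44 and 8.16 in Double KO and 11.50 and 11.87 in WT hearts. Eif2s3y, a Y-linked gene, gave 10.67, 10.61 and 10.33 in Nkx2-5 KO, 5.13, 5.20 and 5.68 in Tbx5 KO, 10.61, 10.47 and 10.37 in Double KO and 5.07, 5.26 and 6.92 in WT hearts. Loss of Nkx2-5 and these sex-linked levels therefore cannot be told apart on these arrays, and this touches every comparison below except Tbx5 KO with WT and Double KO with Nkx2-5 KO. Nkx2-5 KO replicate 2 stood apart in some markers of other tissues, with 10.29 for Prrx1, a mesenchyme gene, against 8.39 and 8.37 in its 2 companions, and 9.41 for Otx2, a forebrain gene, against 7.90 and 7.66. Not all neural genes followed Otx2: Pax6 was 9.02 there, against 9.22 and 9.11. The same array had the lowest sums of its group for primitive erythroid genes (14.50, against 15.35 and 15.39) and endothelial genes (13.32, against 13.60 and 13.44). The WT arrays also differed among themselves in many members, with replicate 3 apart from the other 2, as described next, so results that rest on it are given with and without it. Calls gained without an array that stood apart in the same genes were selected by those values. Such calls show dependence on that array and are no test.

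The start regions of 4 genes that show the array pattern described next are printed with each CpG in capitals. Whether these stretches include the methylated one of their cluster was not examined. The windows run from 250 bases before to 50 bases after the gene's start (RefSeq, build GRCm38.p6), and where RefSeq gives several starts the most upstream one was taken. Igf2r (chr17:12769657-12769956, minus strand), Grb10 (chr11:12037371-12037670, minus strand) and Zim1 (chr7:6696383-6696682, minus strand), all maternally expressed, shared their low and high arrays. Plagl1 (chr10:13090582-13090881, plus strand), paternally expressed, was low on other arrays.
Igf2r: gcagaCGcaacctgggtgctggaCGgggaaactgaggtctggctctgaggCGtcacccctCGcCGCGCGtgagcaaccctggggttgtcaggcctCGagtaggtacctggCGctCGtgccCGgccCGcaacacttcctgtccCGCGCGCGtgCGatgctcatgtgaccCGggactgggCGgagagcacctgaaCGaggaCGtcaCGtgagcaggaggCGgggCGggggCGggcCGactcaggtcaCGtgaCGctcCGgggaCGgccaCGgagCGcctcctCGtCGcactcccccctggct
Grb10: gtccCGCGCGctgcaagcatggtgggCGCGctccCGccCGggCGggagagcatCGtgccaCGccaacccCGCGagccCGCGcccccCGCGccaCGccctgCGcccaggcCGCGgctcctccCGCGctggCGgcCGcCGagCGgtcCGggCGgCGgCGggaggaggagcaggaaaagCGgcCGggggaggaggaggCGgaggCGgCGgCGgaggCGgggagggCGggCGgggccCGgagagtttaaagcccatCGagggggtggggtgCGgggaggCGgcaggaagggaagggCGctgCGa
Zim1: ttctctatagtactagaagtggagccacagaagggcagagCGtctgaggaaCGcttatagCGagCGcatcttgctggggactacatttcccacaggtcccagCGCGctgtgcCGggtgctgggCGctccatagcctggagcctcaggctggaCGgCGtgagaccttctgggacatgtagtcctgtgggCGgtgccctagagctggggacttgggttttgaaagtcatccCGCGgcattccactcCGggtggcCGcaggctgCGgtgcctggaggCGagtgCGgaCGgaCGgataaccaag
Plagl1: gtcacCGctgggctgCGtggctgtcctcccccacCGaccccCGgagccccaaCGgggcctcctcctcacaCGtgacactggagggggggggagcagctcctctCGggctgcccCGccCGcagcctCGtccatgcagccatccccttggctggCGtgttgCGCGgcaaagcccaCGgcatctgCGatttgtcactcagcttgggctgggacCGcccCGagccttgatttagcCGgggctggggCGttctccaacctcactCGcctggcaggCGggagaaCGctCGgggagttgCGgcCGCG
These windows hold 34 CpG (Igf2r), 45 CpG (Grb10), 20 CpG (Zim1) and 26 CpG (Plagl1). Igf2 and Nnat, which also show a step between arrays, had 2 CpG and 17 CpG in windows that are not printed. Cdkn1c, another such gene, had no window. Over the 24 members with a window the median was 14 CpG, with a range of 2 to 45, and over the 27025 genes with a window it was 7. The maternally expressed members had a median of 18 CpG (12 genes) and the paternally expressed ones 12.5 CpG (12 genes). The letters TNAAGTG, a form of the site that NKX2-5 binds, occurred on either strand in 1 of the 24 member windows (4.17%), that of Magel2, and in 11.5% of all windows. The letters AGGTGT, a form of the T-box site, occurred in 4 of the 24 (16.7%), those of Ascl2, Peg3, Dlk1 and Usp29, and in 13.9% of all windows. The Peg3 and Usp29 windows overlap, so the 24 are not all separate regions, and whether their match is the same site was not checked. None of the 4 printed windows holds either motif, which says only that these letters are not in them; a match would be no evidence of binding either. Methylation was not measured.

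The members with the widest variation took separate levels on different arrays. For each gene the 12 arrays were put in order of level and the largest step between neighbours in that order was taken. That step was at least 1 log2 unit in 7 of 29 members (24.1%), which were Igf2, Plagl1, Igf2r, Grb10, Zim1, Nnat and Cdkn1c, and in 134 of all 19938 genes (0.672%). The measure was chosen after the values were seen, so it describes these arrays and is no test. Cdkn1c, with a step of 1.34, was the last gene inside the limit, and Mkrn3, with 0.58, the first outside it. The step of Igf2 (2.54) ranked 7 among all genes, that of Plagl1 (2.28) ranked 11 and that of Igf2r (2.08) ranked 14.

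**Figure D1:**
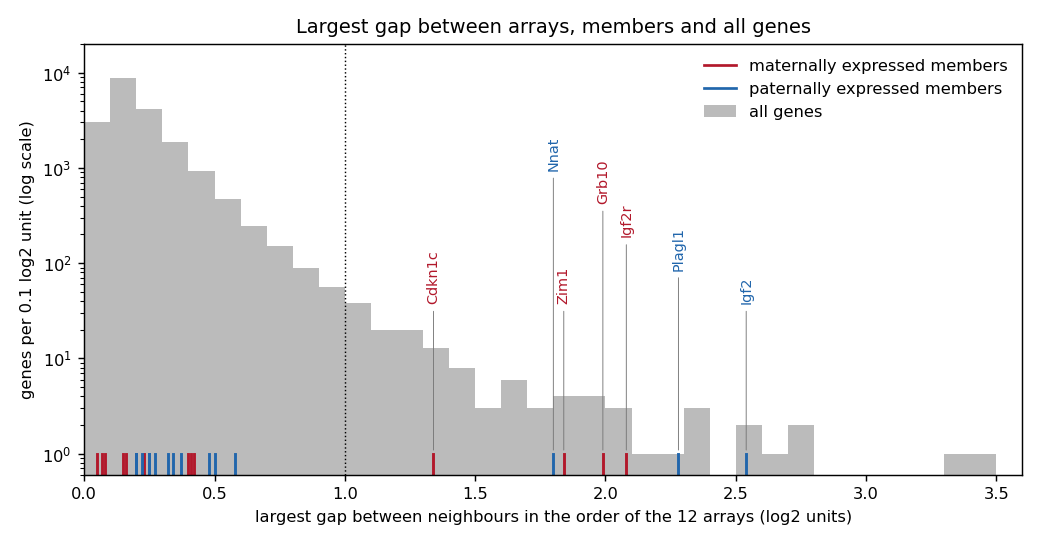
The x axis gives, for each gene, the largest step in log2 units between neighbours when the 12 arrays are put in order of level, and the y axis the number of genes per 0.1 log2 unit on a log scale. Grey bars count all 19938 genes, coloured ticks mark the 29 members and the dotted line marks 1 log2 unit; 7 members lie to its right, between 1.34 and 2.54.

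Igf2r, Grb10 and Zim1 were high on the same 7 arrays and low on the same 5. Igf2r gave 13.39, 12.75 and 13.23 in Nkx2-5 KO, 10.62, 10.18 and 10.44 in Tbx5 KO, 13.24, 13.17 and 13.17 in Double KO and 10.30, 10.67 and 12.84 in WT hearts. Grb10 gave 12.66, 12.63 and 12.54 in Nkx2-5 KO, 9.48, 9.03 and 9.81 in Tbx5 KO, 12.88, 12.80 and 11.80 in Double KO and 8.56, 8.29 and 12.65 in WT hearts. Zim1, a zinc finger gene next to Peg3, gave 10.05, 9.87 and 9.76 in Nkx2-5 KO, 7.39, 7.03 and 7.28 in Tbx5 KO, 9.73, 9.52 and 9.24 in Double KO and 7.06, 7.11 and 10.07 in WT hearts. All 3 genes were thus high in every Nkx2-5 KO and Double KO array and in WT replicate 3, and low in every Tbx5 KO array and in WT replicates 1 and 2. In whole-heart RNA, fewer cells that express a gene and less RNA per cell cannot be told apart.

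Cdkn1c, from the Kcnq1 cluster, had another order. It gave 11.68, 11.96 and 11.63 in Nkx2-5 KO, 10.05, 10.29 and 10.15 in Tbx5 KO, 12.76, 12.66 and 12.81 in Double KO and 12.74, 9.37 and 12.66 in WT hearts. WT replicate 1, low for Igf2r, Grb10 and Zim1, was high for Cdkn1c, and the Nkx2-5 KO arrays lay between the Double KO and the Tbx5 KO arrays. The other measured members of the Kcnq1 cluster had no such step: it was 0.42 for Phlda2, which limits placental growth, 0.23 for Ascl2, a trophoblast transcription factor, 0.08 for the transporter-like Slc22a18 and 0.05 for the oxysterol-binding protein Osbpl5.

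Among the paternally expressed members Igf2 was low on 3 arrays. It gave 13.09, 13.11 and 13.25 in Nkx2-5 KO, 12.30, 9.13 and 12.34 in Tbx5 KO, 13.11, 13.36 and 13.45 in Double KO and 9.57, 9.76 and 12.93 in WT hearts. Tbx5 KO replicate 2 and WT replicates 1 and 2 were low, and the lowest of the other 9 arrays was 2.54 above the highest of these. Nnat, which encodes a small membrane protein of the endoplasmic reticulum, gave 9.46, 11.52 and 8.65 in Nkx2-5 KO, 11.48, 11.59 and 11.59 in Tbx5 KO, 8.90, 9.39 and 11.58 in Double KO and 11.43, 11.49 and 11.26 in WT hearts. It was low in Nkx2-5 KO replicates 1 and 3 and in Double KO replicates 1 and 2, and high elsewhere. Plagl1, a zinc finger transcription factor that regulates other imprinted genes in the mouse, gave 8.25, 10.52 and 7.67 in Nkx2-5 KO, 12.27, 12.58 and 12.21 in Tbx5 KO, 11.64, 11.76 and 11.64 in Double KO and 11.94, 12.51 and 12.08 in WT hearts. Every Nkx2-5 KO array lay below every other array for Plagl1, with replicate 2 nearest to them. Nkx2-5 KO replicate 2, which kept high Nnat and the highest Plagl1 of its group, was also the array with raised Prrx1 and Otx2, whose part in these levels was not tested.

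**Figure D2:**
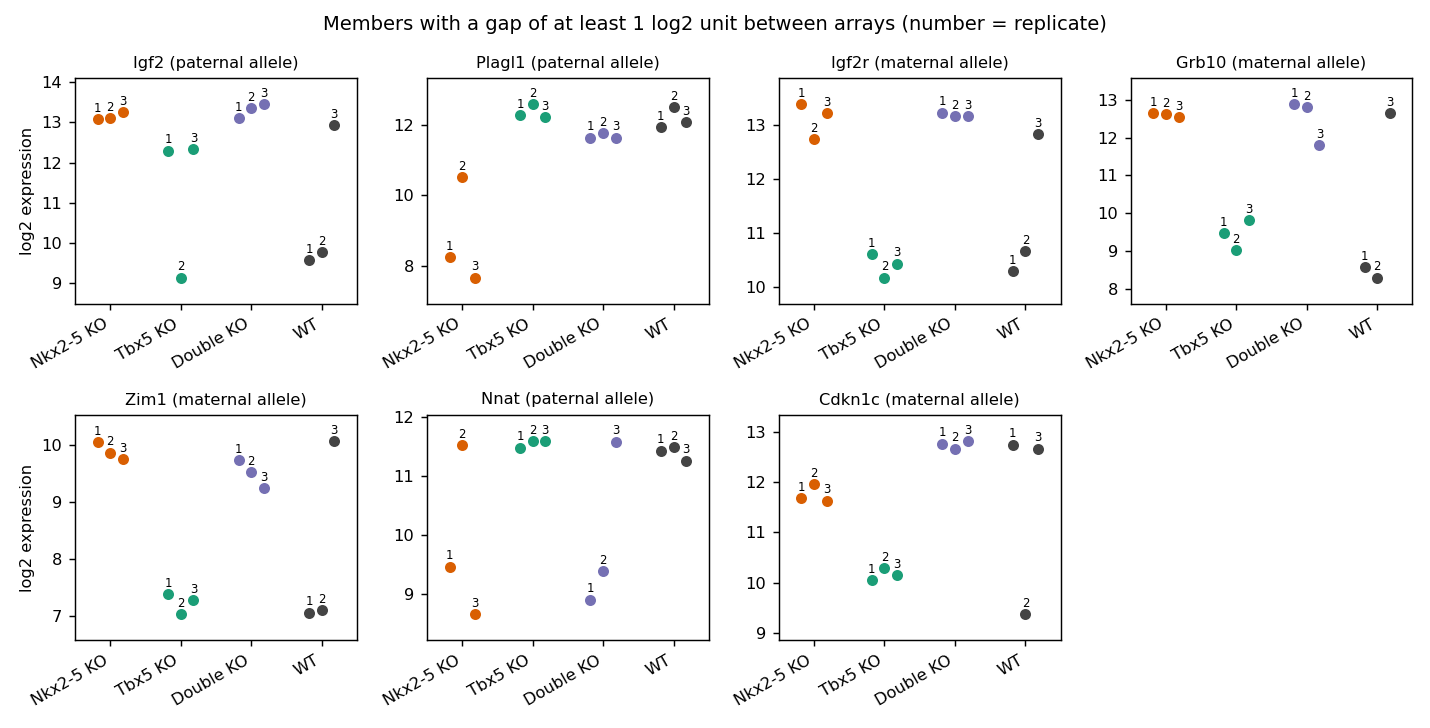
Each panel gives the log2 expression of 1 member on the y axis for the 4 groups on the x axis, with 1 point for each array, numbered by replicate. Igf2r, Grb10 and Zim1 are low in all Tbx5 KO arrays and in WT replicates 1 and 2 and high in WT replicate 3, Plagl1 is low in Nkx2-5 KO arrays only, and Nnat is low in 4 Nkx2-5 KO and Double KO arrays.

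Much of this variation lay between WT hearts. The 3 WT arrays spanned at least 1 log2 unit in 9 of 29 members (31%) and in 299 of all genes (1.5%), in 2 members within Nkx2-5 KO (1.07% of all genes), in 1 within Tbx5 KO (1.07%) and in 2 within Double KO (1.97%). The WT range of Grb10 was 4.36 log2 units, rank 1 of all 19938 genes, that of Cdkn1c was 3.37 (rank 3), that of Igf2 3.36 (rank 4) and that of Zim1 3.01 (rank 7). Without WT replicate 3 a single member, Cdkn1c, spanned 1 log2 unit, against 190 of all genes. The other members over the limit were Igf2r with a range of 2.54, Mkrn3 with 1.47, Dlk1 with 1.12, Asb4 with 1.07 and Phlda2 with 1.0, which sits on it.

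The deviations of single arrays were also set out by parental allele. For WT replicate 3 the deviation from the WT mean had a median of 0.15 over the 14 maternally expressed members, 10 of which were above the mean, and of -0.13 over the 15 paternally expressed members, 3 of which were above it, beside 55.5% of all genes. The medians for WT replicate 1 were -0.04 (maternally expressed) and 0.04 (paternally expressed), and those for WT replicate 2, where 4 maternally and 12 paternally expressed members were above the mean, were -0.126 and 0.185 in the same order. Shifts of opposite sign were also found outside the WT group: Double KO replicate 3 had medians of -0.0827 and 0.147 from its own group mean, with 5 and 11 members above it. The deviation of the median gene of the whole array from its WT mean lay between -0.00976 and 0.0159. WT replicate 3 was lowest of the WT arrays in Mkrn3, a ubiquitin ligase gene (8.40, 8.41 and 6.93), and in Sgce, which encodes epsilon-sarcoglycan (11.21, 11.44 and 10.56). Igf2 and Dlk1 went the other way for the paternal class: both were highest in replicate 3, where Dlk1, a Notch-like membrane protein, reached 9.61, against 8.49 and 8.86. Replicate 3 was also the WT array with the highest Eif2s3y (6.92), while its Xist (11.50) was close to that of the others. It was also the highest WT array in the summed level of 13 visceral endoderm and yolk sac genes (12.06, against 11.61 and 11.78), with Ttr, a thyroid hormone carrier, at 9.25 against 7.85 and 8.04. The summed level of 8 neural genes was 11.99 there, against 11.73 and 11.69, with the neuronal tubulin Tubb3 at 10.77 against 9.61 and 9.78. The other neural genes did not all follow: replicate 3 was highest also in Sox2 and Otx2. It was the lowest WT array in Nes (8.32, against 9.05 and 8.78), Sox1 (8.82, against 9.11 and 9.03), Pax6, Sox3 and Pou3f1. The part of these genes in the members' levels was not tested. WT replicate 2, low in Cdkn1c and Phlda2, had the lowest summed level of 8 primitive erythroid genes, 14.40 against 15.45 and 15.49, and that link was not tested either.

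**Figure D3:**
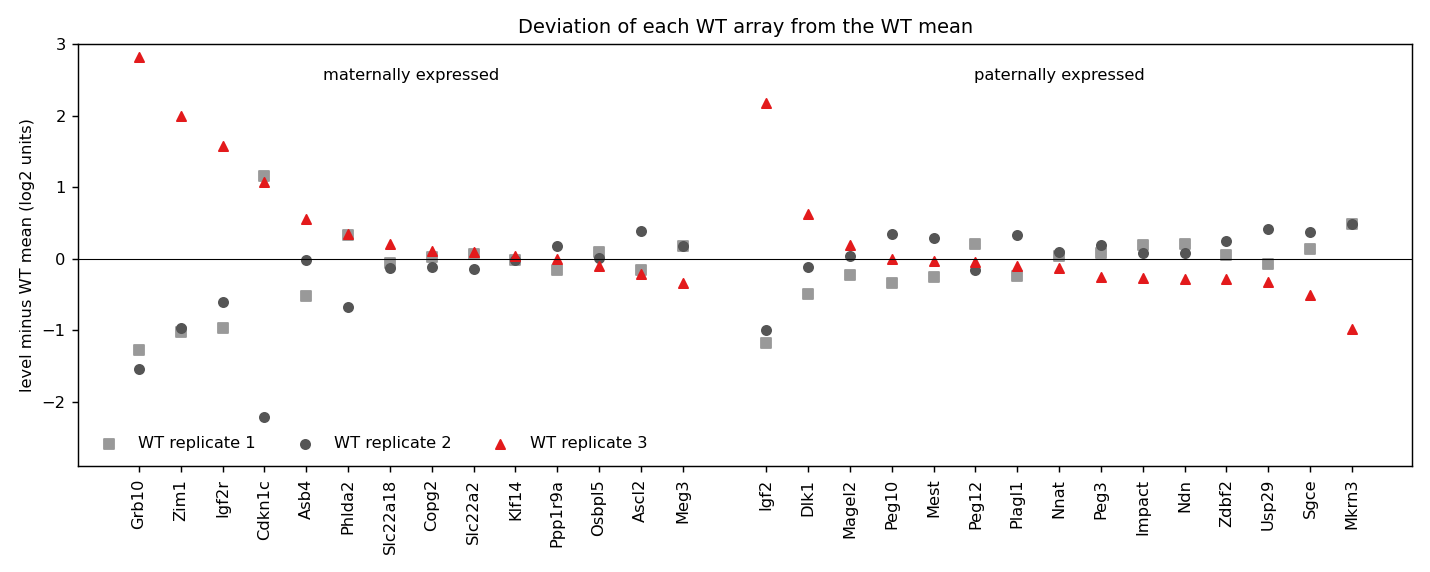
The y axis gives the level of each WT array minus the mean of the 3 WT arrays in log2 units, for the 14 maternally expressed members on the left and the 15 paternally expressed members on the right, each class ordered by replicate 3. WT replicate 3 is far above the others for Grb10, Zim1, Igf2r and Igf2 and far below them for Mkrn3.

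With Nkx2-5 absent, 3 of 29 members were called against WT, while 4.43% of all genes were called (1.84% higher and 2.59% lower). Plagl1 fell by 3.36 ± 0.51 (adjusted p = 0.00565), a 10.3-fold lower level, and the call held under all 21 alternative settings. The size of the change rested in part on Nkx2-5 KO replicate 2, without which the difference was -4.22. Ndn, which encodes the growth-restraining MAGE protein necdin, gave 11.10, 10.92 and 10.94 in Nkx2-5 KO hearts, against 11.75, 11.64 and 11.27 in WT hearts, without overlap. It fell by 0.57 ± 0.12 (adjusted p = 0.0193), and leaving out WT replicate 1 or Nkx2-5 KO replicates 1 or 3 ended the call (adjusted p up to 0.0876). Igf2r rose by 1.86 ± 0.47 (adjusted p = 0.0459), although WT replicate 3 (12.84) lay above the lowest Nkx2-5 KO array (12.75). That call was lost without any 1 of 10 of the 12 arrays, with an adjusted p of up to 0.173, and the change ranged from 1.37 to 2.64 over all alternatives.

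WT replicate 3 decided several of the other values in Nkx2-5 KO hearts. Grb10 differed by 2.78 ± 0.84 (adjusted p = 0.0829), Zim1 by 1.81 ± 0.58 (adjusted p = 0.101), Igf2 by 2.39 ± 0.87 (adjusted p = 0.151) and Mkrn3 by -0.24 ± 0.30 (adjusted p = 0.798). Without that array the differences were 4.19 for Grb10 (adjusted p = 5.4e-05), 2.81 for Zim1 (adjusted p = 6.15e-06), 3.48 for Igf2 (adjusted p = 0.034) and -0.73 for Mkrn3 (adjusted p = 0.0272), and all 4 were called. Cdkn1c turned sign with WT replicate 2, from 0.17 ± 0.64 over all arrays to -0.94 without it (adjusted p = 0.0025). WT replicates 3 and 2 were singled out by their levels of these same genes, so the calls gained without them are no test. Nnat differed by -1.52 ± 0.68 (adjusted p = 0.26), and without Nkx2-5 KO replicate 2 by -2.34 (adjusted p = 0.046). The median difference was 0.23 over the maternally expressed members, 12 of 14 positive, and -0.26 over the paternally expressed ones, 11 of 15 negative, beside 0.00 over all genes. Leaving out 1 array moved the paternal median to -0.17 (WT replicate 1), -0.18 (WT replicate 2), -0.41 (WT replicate 3) or -0.40 (replicate 2 of Nkx2-5 KO).

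Loss of Tbx5 alone was accompanied by 2 called members of 29, both maternally expressed and both higher, where 2.31% of all genes were called (0.998% higher and 1.31% lower). Meg3, a long noncoding RNA, gave 12.36, 12.82 and 12.23 in Tbx5 KO hearts, against 11.78, 11.78 and 11.28 in WT hearts, without overlap, and rose by 0.85 ± 0.18 (adjusted p = 0.0262). Copg2, a subunit of the coat of Golgi vesicles, gave 11.20, 11.27 and 11.34 in Tbx5 KO hearts, against 10.77, 10.63 and 10.85 in WT hearts, and rose by 0.52 ± 0.10 (adjusted p = 0.02). Both are single-array sensitive: Meg3 lost its call without WT replicate 3 or Tbx5 KO replicates 1 or 2 (adjusted p up to 0.0976), and Copg2 without WT replicates 1 or 2 or any Tbx5 KO array (adjusted p up to 0.0749).

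The class medians in Tbx5 KO hearts were 0.06 for the maternally expressed and 0.11 for the paternally expressed members, beside 0.01 over all genes. Cdkn1c differed by -1.43 ± 0.64 (adjusted p = 0.313), and without WT replicate 2 it was 2.54 lower on the log2 scale (a difference of -2.54, adjusted p = 2.91e-06). Mest, which encodes a hydrolase-like protein read from the paternal copy beside Copg2, gave 12.16, 12.51 and 12.54 in Tbx5 KO hearts, against 12.90, 13.46 and 13.13 in WT hearts, a difference of -0.76 ± 0.21 that was not called (adjusted p = 0.0882). Trophoblast genes were higher on the same arrays: the summed level of 19 trophoblast and decidua genes was 11.79 to 11.92 in Nkx2-5 KO, 13.02 to 13.07 in Tbx5 KO, 11.89 to 12 in Double KO and 11.74 to 11.93 in WT hearts, and 6 of the 19 rose in Tbx5 KO against WT hearts, beside 0.998% of all genes. Prl3d3, a placental hormone gene, rose by 4.32 ± 0.35 (adjusted p = 4.71e-05) and Rhox9, a placental homeobox gene, by 1.88 ± 0.14 (adjusted p = 3.74e-05). Several imprinted genes are active in placenta, and the part of this RNA in the members' levels was not tested. Other members not called in the same comparison include Ascl2 (0.19 ± 0.16, adjusted p = 0.668) and Phlda2 (-0.05 ± 0.32, adjusted p = 0.973). Peg10, a retrotransposon-derived gene, differed by 0.02 ± 0.21 (adjusted p = 0.988) and Igf2 by 0.50 ± 0.87 (adjusted p = 0.879), and neither was called.

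Of the 3 mutant groups, Double KO hearts had the most called members, and calls were also most frequent there over all genes. Of 29 members 10 were called against WT (34.5%), 6 higher and 4 lower, beside 23.4% of all genes (9.05% higher and 14.4% lower). Among the maternally expressed members 5 of 14 rose and 0 fell, and all 14 differences were positive, with a median of 0.39. Among the paternally expressed members 4 of 15 fell and 1 rose, and 11 differences were negative, with a median of -0.47. The median over all genes was 0.06. The 14 positive signs include differences far inside their SE, such as 0.02 ± 0.10 for Copg2 and 0.03 ± 0.08 for Osbpl5.

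**Figure D4:**
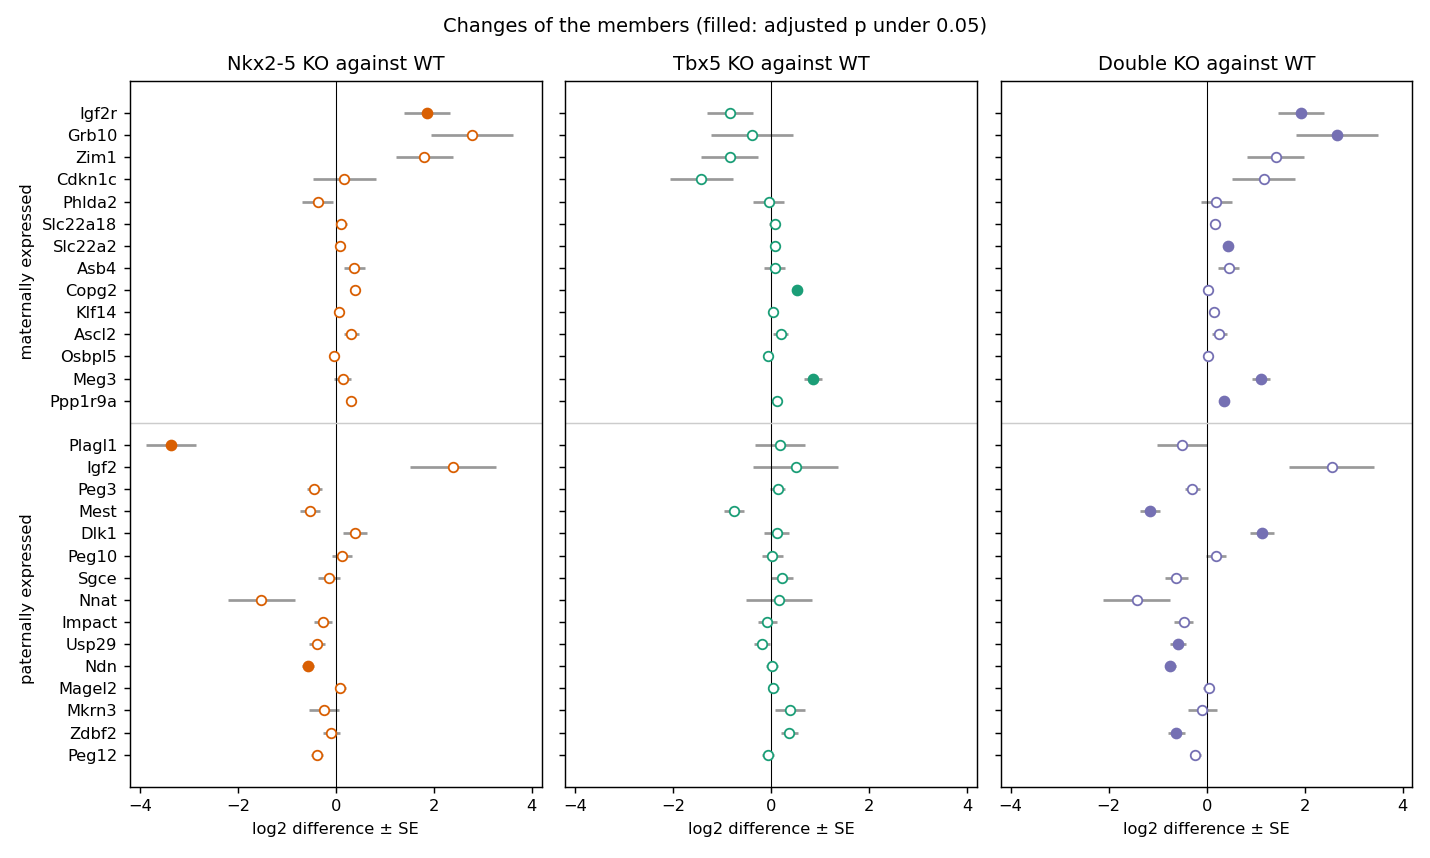
The x axis gives the log2 difference of Nkx2-5 KO, Tbx5 KO and Double KO from WT hearts, with the SE of the fit as bars, for the 29 members on the y axis, maternally expressed above and paternally expressed below. Filled points were called, and the widest bars belong to Igf2, Grb10, Nnat, Cdkn1c and Zim1.

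The called rises in Double KO hearts took in growth regulators and noncoding RNA. Meg3 gave 12.95, 12.70 and 12.51 in Double KO hearts, against 11.78, 11.78 and 11.28 in WT hearts, and rose by 1.11 ± 0.18 (adjusted p = 0.000728). Dlk1, its paternally expressed neighbour, gave 10.13, 10 and 10.21 in Double KO hearts, against 8.49, 8.86 and 9.61 in WT hearts, and rose by 1.13 ± 0.25 (adjusted p = 0.00609). Neither gene's groups overlapped, and both calls held under all 21 alternatives. Igf2r rose by 1.92 ± 0.47 (adjusted p = 0.0106), with every Double KO array above every WT array, and held likewise; without WT replicate 3 the difference was 2.71. Slc22a2, an organic cation transporter next to Igf2r, was a dim probe set at 7.68, 7.88 and 7.60 in Double KO hearts, against 7.35, 7.14 and 7.38 in WT hearts. It rose by 0.43 ± 0.10 (adjusted p = 0.00951) and held likewise.

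Grb10 and Ppp1r9a, an actin-binding scaffold known as neurabin, were less secure. Grb10 rose by 2.66 ± 0.84 (adjusted p = 0.0364) and Ppp1r9a by 0.36 ± 0.10 (adjusted p = 0.0246). Leaving out WT replicates 1 or 2 or Double KO replicates 1 or 2 ended the call of Grb10 (adjusted p up to 0.14), and leaving out WT replicates 1 or 3 or Double KO replicates 1 or 2 ended that of Ppp1r9a (adjusted p up to 0.105). Without WT replicate 3 the difference was 4.07 for Grb10, and 3 further members were called higher, namely Igf2 at 3.64 (adjusted p = 0.00459), Zim1 at 2.41 (adjusted p = 1e-05) and Asb4, a ubiquitin ligase component, at 0.73 (adjusted p = 0.0142). Sgce at -0.87 (adjusted p = 0.0139) and Mkrn3 at -0.58 (adjusted p = 0.0133) were then called lower. With all arrays these were 2.55 ± 0.87 for Igf2 (adjusted p = 0.0502), 1.41 ± 0.58 for Zim1 (adjusted p = 0.096), 0.45 ± 0.22 for Asb4 (adjusted p = 0.147), -0.62 ± 0.23 for Sgce (adjusted p = 0.0706) and -0.09 ± 0.30 for Mkrn3 (adjusted p = 0.862). WT replicate 3 stood apart in these genes, so the calls gained without it are no test.

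The called falls in Double KO hearts were all of paternally expressed genes. Mest gave 11.93, 11.70 and 12.36 in Double KO hearts, against 12.90, 13.46 and 13.13 in WT hearts, and fell by 1.16 ± 0.21 (adjusted p = 0.00164). Ndn gave 10.89, 10.76 and 10.79 in Double KO hearts, against 11.75, 11.64 and 11.27 in WT hearts, and fell by 0.74 ± 0.12 (adjusted p = 0.000683). Both separated the groups without overlap and held under all 21 alternatives. Zdbf2, a zinc finger gene, gave 10.78, 10.91 and 11.17 in Double KO hearts, against 11.62, 11.81 and 11.29 in WT hearts, and fell by 0.62 ± 0.17 (adjusted p = 0.021). Usp29, a ubiquitin protease gene that starts beside Peg3, fell by 0.59 ± 0.16 (adjusted p = 0.0204). Leaving out WT replicate 2 or Double KO replicate 2 ended both of these calls, and that of Zdbf2 also went without replicate 1 of either group (adjusted p up to 0.0838 for Zdbf2 and 0.095 for Usp29). Nnat differed by -1.43 ± 0.68 (adjusted p = 0.144), and without Double KO replicate 3 it was -2.25 (adjusted p = 0.0156). The primitive erythroid genes were lower in the same hearts, with a summed level of 13.09 to 14.38 in Double KO, against 14.40 to 15.49 in WT hearts, and 3 of 8 called lower, beside 14.4% of all genes. Of 8 neural genes 2 were called higher and 1 lower in these hearts, beside 9.05% and 14.4% of all genes. Among them were Pax6, a neural and eye transcription factor, at 1.84 ± 0.16 (adjusted p = 1.8e-05) and Tubb3 at -1.55 ± 0.27 (adjusted p = 0.00131). Both were also called, with the same signs, in each single KO group against WT hearts. Of 9 endocardial and endothelial genes 1 was called higher and 3 lower, beside the same 9.05% and 14.4% of all genes. Among the lower ones was Tek, an angiopoietin receptor, at -1.19 ± 0.23 (adjusted p = 0.00236). The part of these tissue markers in the members' changes was not tested.

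Set against the single losses, Double KO hearts differed from Nkx2-5 KO hearts in few members and from Tbx5 KO hearts in more. Against Nkx2-5 KO, 2 of 29 members were called, both higher, beside 5.56% of all genes (1.01% higher and 4.55% lower). Plagl1 rose by 2.87 ± 0.51 (adjusted p = 0.00703; 3.72 without Nkx2-5 KO replicate 2) and Meg3 by 0.97 ± 0.18 (adjusted p = 0.00772), and both held under all 21 alternatives. The class medians were 0.06 for the maternally expressed and 0.06 for the paternally expressed members, beside 0.04 over all genes. In both of these groups Xist was low and Eif2s3y high, so their sex-linked levels match.

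Against Tbx5 KO, 9 of 29 members were called (31%), 5 higher and 4 lower, beside 10.7% of all genes (2.87% higher and 7.86% lower). The higher ones were Grb10 (3.05 ± 0.84, adjusted p = 0.0345), Igf2r (2.78 ± 0.47, adjusted p = 0.00259), Cdkn1c (2.58 ± 0.64, adjusted p = 0.0206), Zim1 (2.26 ± 0.58, adjusted p = 0.025) and Dlk1 (1.01 ± 0.25, adjusted p = 0.0213). The lower ones were Zdbf2 (-0.99 ± 0.17, adjusted p = 0.00297), Sgce (-0.84 ± 0.23, adjusted p = 0.0345), Ndn (-0.75 ± 0.12, adjusted p = 0.0015) and Copg2 (-0.50 ± 0.10, adjusted p = 0.00725). Igf2r, Zdbf2, Ndn and Copg2 held under all 21 alternatives. Leaving out any of Tbx5 KO replicate 1 or Double KO replicates 1 or 2 ended the other 5 calls, with adjusted p up to 0.113 for Grb10, 0.0774 for Zim1, 0.0672 for Cdkn1c, 0.0814 for Dlk1 and 0.142 for Sgce. Leaving out Tbx5 KO replicate 2 also ended the calls of Grb10, Zim1, Dlk1 and Sgce. Without Tbx5 KO replicate 3 those of Grb10, Zim1, Cdkn1c and Sgce ended, and without Double KO replicate 3 that of Dlk1. The differences moved little over all alternatives, from 2.85 to 3.4 for Grb10, 2.14 to 2.39 for Zim1 and 2.51 to 2.7 for Cdkn1c. The calls of the same genes held with only the arrays compared. The main fit pools the spread of all groups, WT included, where the SD was 2.44, 1.72 and 1.92 in that order. The SD was 0.39, 0.18 and 0.12 for Tbx5 KO, and 0.6, 0.25 and 0.08 for Double KO. The medians were 0.25 for the maternally expressed and -0.40 for the paternally expressed members, beside 0.05 over all genes. These groups differ in Xist and Eif2s3y and in the trophoblast genes, of which 7 of 19 were lower in Double KO hearts.

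The term for non-additivity subtracts the log2 changes of both single losses from that of the combined loss, and it was called for 1 of 29 members, beside 0.547% of all genes (0.0903% higher and 0.456% lower). That member was Copg2, at -0.89 ± 0.14 (adjusted p = 0.017). Its levels were 11.32, 11.09 and 11.02 in Nkx2-5 KO, 11.20, 11.27 and 11.34 in Tbx5 KO, 10.77, 10.69 and 10.84 in Double KO and 10.77, 10.63 and 10.85 in WT hearts, so both single KO groups lay above both other groups. Either Tbx5 KO replicate 3 or replicate 2 of the Double KO hearts, when left out, ended the call (adjusted p up to 0.0527). Plagl1 had a term of 2.69 ± 0.72 (adjusted p = 0.163), which was 3.55 and called without Nkx2-5 KO replicate 2 (adjusted p = 0.000437). Cdkn1c had 2.42 ± 0.90 (adjusted p = 0.396), which was 3.53 and called without WT replicate 2 (adjusted p = 2.15e-06).

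Neighbouring genes read from opposite alleles were set side by side in 3 clusters. In the Peg3 cluster Zim1 was high where Peg3, a zinc finger gene, was lower: Peg3 gave 12.46, 12.57 and 12.43 in Nkx2-5 KO, 13.01, 13.14 and 13.02 in Tbx5 KO, 12.66, 12.32 and 12.91 in Double KO and 13, 13.11 and 12.66 in WT hearts. The 5 arrays with Zim1 at 7.39 or less had Peg3 at 13 or more, and the 7 others had it at 12.91 or less, although none of the 6 comparisons called Peg3 (adjusted p of 0.0875 or more). Airn, the noncoding RNA read from the paternal copy across Igf2r, which keeps paternal Igf2r silent in the mouse embryo, gave 11.10, 11.16 and 10.85 in Nkx2-5 KO, 11.58, 11.82 and 11.68 in Tbx5 KO, 10.98, 11.27 and 11.11 in Double KO and 11.10, 10.98 and 10.37 in WT hearts. It rose by 0.88 ± 0.17 in Tbx5 KO against WT hearts (adjusted p = 0.019) and was lower by a difference of -0.57 ± 0.17 in Double KO against Tbx5 KO hearts (adjusted p = 0.0494). WT replicate 3, high in Igf2r, was the lowest array in Airn. In the Dlk1 and Meg3 cluster Dlk1 was higher in Double KO than in Tbx5 KO hearts, as given above, while Meg3 was not told apart between them (0.25 ± 0.18, adjusted p = 0.412). Rian, a noncoding RNA downstream of Meg3, gave 10.59, 10.80 and 10.38 in Nkx2-5 KO, 11.12, 12.09 and 10.99 in Tbx5 KO, 11.12, 10.89 and 11.17 in Double KO and 11.02, 10.71 and 10.43 in WT hearts, and each KO group overlapped with WT.

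**Figure D5:**
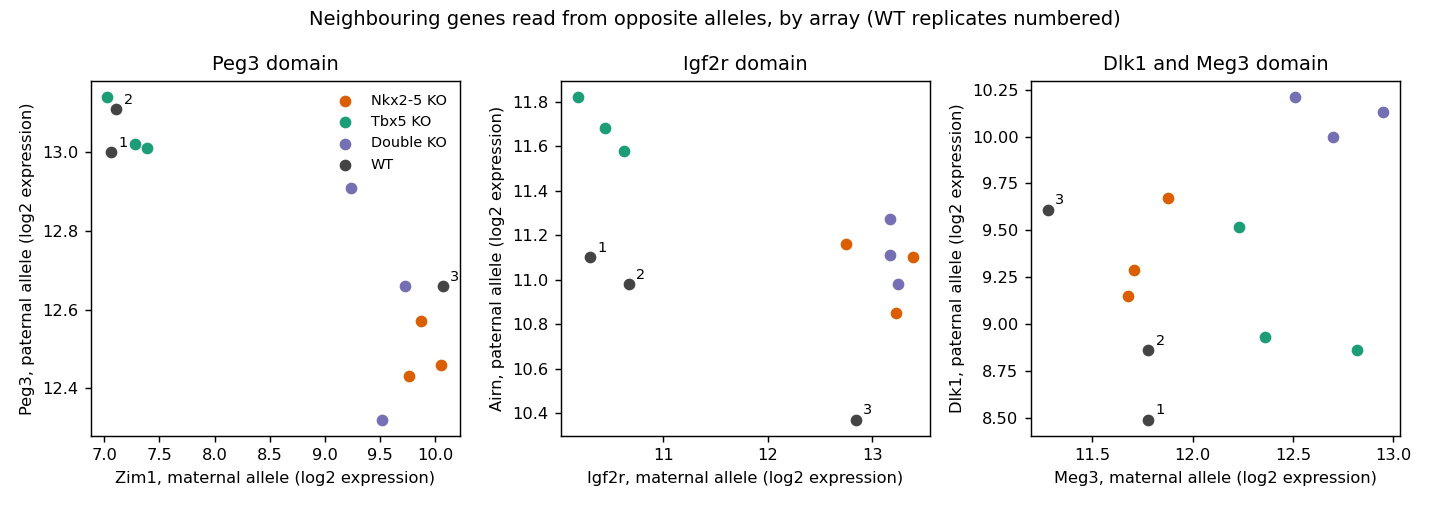
Each panel sets the log2 expression of a maternally expressed gene on the x axis against that of a paternally expressed neighbour on the y axis, with 1 point for each of the 12 arrays, coloured by group and with the WT replicates numbered. WT replicate 3 lies near the Nkx2-5 KO and Double KO arrays for Zim1 and Peg3 and apart from all groups for Igf2r and Airn, and the Double KO arrays lie highest for Dlk1.

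The remaining members passed the threshold in none of the 6 comparisons. They were Asb4, Phlda2, Slc22a18, Klf14, Ascl2 and Osbpl5 among the maternally expressed genes and Igf2, Peg3, Peg10, Nnat, Impact, Magel2, Mkrn3 and Peg12 among the paternally expressed ones. Klf14, a transcription factor gene, lay between 8.95 and 9.17 on all 12 arrays, and Magel2, a MAGE gene beside Ndn, between 7.78 and 8.20. Peg10 was the brightest member, with a mean of 13.02 over all arrays, and Slc22a2 and Usp29 the dimmest, at 7.44 each. Impact, which restrains the amino acid stress kinase GCN2, gave 11.30, 11.55 and 11.74 in Double KO hearts, against 12.19, 12.07 and 11.73 in WT hearts, a difference of -0.47 ± 0.19 (adjusted p = 0.0899). Peg12, a gene of the GSK3-binding FRAT family, gave 9.18, 9.20 and 9.13 in Nkx2-5 KO hearts, against 9.76, 9.40 and 9.51 in WT hearts, without overlap, a difference of -0.39 ± 0.12 (adjusted p = 0.0961).

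A wider list held 29 other imprinted genes with a probe set of their own. In Double KO against WT hearts 5 of them were called, all lower, beside 14.4% of all genes lower: Gatm, an enzyme of creatine synthesis (-1.19 ± 0.19, adjusted p = 0.000699), Tspan32, a membrane protein of blood cells (-0.69 ± 0.23, adjusted p = 0.0497), Nap1l5 (-0.68 ± 0.16, adjusted p = 0.00901), Pon3, a lactonase (-0.67 ± 0.19, adjusted p = 0.0223), and Jade1, a chromatin protein (-0.58 ± 0.13, adjusted p = 0.00616). By parental allele, 3 of the 18 maternally expressed genes of this list were called lower and 0 higher in Double KO hearts, with a median of 0.07. Of the 11 paternally expressed ones 2 were called lower and 0 higher, with a median of -0.04. The median over all genes was 0.06, so this list did not show the members' split by allele (medians of 0.39 and -0.47). In Nkx2-5 KO against WT hearts 0 genes of the wider list were called, and in Tbx5 KO against WT hearts Airn was the only one. Jade1 was also lower in Double KO than in Nkx2-5 KO hearts (-0.85 ± 0.13, adjusted p = 0.00298).

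Of 23 genes that set or keep imprints, counted one by one, 10 fell and 3 rose in Double KO against WT hearts, beside 14.4% and 9.05% of all genes. Uhrf1, which brings the maintenance methyltransferase to replicating DNA, gave 9.40, 9.50 and 10.34 in Double KO hearts, against 11.56, 11.36 and 11.71 in WT hearts, and fell by 1.79 ± 0.20 (adjusted p = 6.3e-05). Dnmt1, that methyltransferase, gave 11.11, 10.90 and 11.53 in Double KO hearts, against 11.83, 12.01 and 11.98 in WT hearts, and fell by 0.76 ± 0.14 (adjusted p = 0.00157). Smchd1, a chromatin protein of imprinted clusters and the inactive X, fell by 0.77 ± 0.16 (adjusted p = 0.00408), Ezh2, a Polycomb methyltransferase, by 0.73 ± 0.13 (adjusted p = 0.00159), and Ctcf, the insulator protein of the Igf2 cluster, by 0.71 ± 0.12 (adjusted p = 0.000952). Tet2, an enzyme that oxidises methylated cytosine, rose by 1.28 ± 0.22 in Double KO (adjusted p = 0.00124) and by 0.95 ± 0.22 in Nkx2-5 KO hearts (adjusted p = 0.0308). In Nkx2-5 KO against WT hearts Tet2 was the 1 called gene of the list, and in Tbx5 KO against WT hearts it was Kdm1b, a histone demethylase needed for imprints in mouse oocytes (-0.50 ± 0.12, adjusted p = 0.0468).

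Genes of the IGF pathway beside Igf2 and Igf2r were counted one by one. Of 18 measured genes, 4 rose and 0 fell in Nkx2-5 KO against WT hearts, beside 1.84% and 2.59% of all genes. In Tbx5 KO hearts 1 rose and 1 fell, beside 0.998% and 1.31%, and in Double KO hearts 4 rose and 3 fell, beside 9.05% and 14.4%. Igfbp3, a binding protein that holds IGFs, gave 10.78, 10.60 and 10.57 in Nkx2-5 KO, 10.80, 10.67 and 11.18 in Tbx5 KO, 11.01, 10.89 and 10.89 in Double KO and 8.44, 10.18 and 9.32 in WT hearts. Every mutant array lay above every WT array, and the rises were 1.34 ± 0.31 (Nkx2-5 KO, adjusted p = 0.0301), 1.57 ± 0.31 (Tbx5 KO, adjusted p = 0.02) and 1.62 ± 0.31 (Double KO, adjusted p = 0.00231). These comparisons share the WT arrays. Irs1, another gene of the list, fell by 0.96 ± 0.21 in Double KO against WT hearts (adjusted p = 0.00613). It was also lower in Double KO than in Nkx2-5 KO hearts (-1.32 ± 0.21, adjusted p = 0.00439). Insr, the insulin receptor, rose by 0.96 ± 0.14 in Nkx2-5 KO (adjusted p = 0.00428) and by 1.07 ± 0.14 in Double KO hearts (adjusted p = 0.000213). Igfbp5, another IGF binding protein, rose by 0.61 ± 0.16 in Nkx2-5 KO (adjusted p = 0.0498) and fell by 0.87 ± 0.16 in Tbx5 KO (adjusted p = 0.0143) and by 0.52 ± 0.16 in Double KO hearts (adjusted p = 0.0336).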

How the data were processed

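Total RNA of dissected hearts was amplified with the NuGEN Ovation kit and hybridised to Affymetrix arrays, per the labels' protocols. The authors deposited log2 levels for each probe set; the summarization and normalization of the scans were not given in the sources used here. These levels ran from 3.21 to 14.74 with array medians of 8.05 to 8.25, and no scaling was added. Of 35557 probe sets, 21789 carried exactly 1 symbol in the platform annotation, 1621 several and 12147 none, and the brightest single-symbol probe set of a gene was kept, which gave 19938 genes with no filter on dim signals. Identical arrays were looked for, and 0 pairs were found.

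Means of the 4 groups were estimated from the 12 arrays together by limma's lmFit and eBayes (limma 3.58.1, R 4.3.3, 8 residual and 4.51 prior degrees of freedom), with two-sided tests in 6 comparisons and Benjamini-Hochberg adjustment over all genes within each. On simulated data for Nkx2-5 KO against WT over 19938 genes, 91% of changes of 1 log2 unit and 100% of changes of 2 log2 units were recovered. Those changes were given to random genes, with normal noise of the same spread in all groups. Several members spread more and unequally, such as Grb10 with an SD of 2.44 in WT and 0.06 in Nkx2-5 KO hearts. The recovery rates therefore do not carry over to such members. Replicate numbers recur in every group, but arrays of the same number correlated between -0.27 and 0.211 in their deviations from the group means (18 pairs), so they were not treated as pairs.

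The members and all gene lists were chosen with earlier results of these data known. The genes named are all 33 members, with Nkx2-5, Tbx5, Xist, Eif2s3y and Rian. Some called genes were named from the lists of other imprinted genes, imprint setting and maintenance genes and IGF pathway genes, the largest changes first. Some genes of the tissue marker lists were named too. Genes tied to their list by a role and the outlying markers of single arrays were picked with their values known. There were 9 alternative settings, and each of the 12 arrays was also left out in turn. Python 3.11.15 drew the figures with matplotlib 3.10.9 from tables built with pandas 2.3.3 and numpy 2.4.6. Promoter windows come from RefSeq (GRCm38.p6), and 24 members had one. The number of arrays limits the precision.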

Additional observations from a re-analysis of the deposited data

Results flagged for a closer look

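Copg2 was marked because its change with loss of Tbx5 differed between hearts without and hearts with Nkx2-5, by a test of the difference itself. The difference of the changes was -0.89 ± 0.14 log2 units (adjusted p = 0.017, limma, over all genes). Copg2 differed by -0.37 ± 0.10 between Double KO and Nkx2-5 KO hearts (adjusted p = 0.0524), against 0.52 ± 0.10 between Tbx5 KO and WT hearts (adjusted p = 0.02). Over the alternatives the term ranged from -0.96 to -0.81 and its adjusted p from 0.005 to 0.0565. The cause was not tested.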

How the results depend on the processing

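Of the 27 calls of members, 13 held under every alternative run for them and 14 were lost under at least 1, most when an array was left out. With all arrays, members called numbered 3 in Nkx2-5 KO against WT, 2 in Tbx5 KO against WT, 10 in Double KO against WT, 2 in Double KO against Nkx2-5 KO, 9 in Double KO against Tbx5 KO and 1 for the non-additive term. Leaving out 1 array at a time gave 1 to 7, 0 to 2, 6 to 14, 2 to 3, 4 to 11 and 0 to 2 in the same order, and all genes called over all alternatives ran from 169 to 2132, 212 to 933, 3254 to 6250, 521 to 2481, 1300 to 2884 and 40 to 343. With array weights the member counts were 8 (Nkx2-5 KO against WT), 6 (Double KO against Nkx2-5 KO) and 3 (non-additive term). With only the arrays compared they were 1 (Nkx2-5 KO against WT), 1 (Tbx5 KO against WT) and 4 (Double KO against Nkx2-5 KO), and with all probe sets tested 1 (Tbx5 KO against WT), 4 (Double KO against Tbx5 KO) and 0 (non-additive term).

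The maternal median in Nkx2-5 KO against WT was 0.17 with arrays centred and 0.26 with array weights, and 0.22 to 0.28 without 1 array. In Tbx5 KO against WT the paternal median was 0.07 with quantile normalization again, 0.07 centred and 0.06 weighted, and without 1 array the medians were 0.01 to 0.12 (maternal) and 0.00 to 0.11 (paternal). In Double KO against WT the paternal median was -0.29 with quantile normalization, the maternal one 0.27 centred and 0.32 to 0.42 without 1 array. In Double KO against Nkx2-5 KO the maternal median was 0.13 with quantile normalization and 0.00 centred, and the paternal one -0.16 to 0.14 without 1 array. In Double KO against Tbx5 KO the maternal median was 0.18 centred and 0.25 to 0.32 without 1 array, and for the non-additive term the medians were -0.02 to 0.17 (maternal) and -0.17 to 0.11 (paternal). The change of Cdkn1c in Nkx2-5 KO against WT ran from -0.94 without WT replicate 2 to 0.74 without WT replicate 1. In alternatives chosen after seeing the data, the members with a WT range over the limit numbered 17 at a limit of 0.5 log2 units and 5 at 1.5, and 1 to 9 without 1 array, while those with a step between arrays stayed between 6 and 8. The replicate number as a block gave 3, 2, 11, 2, 9 and 1 called members in the order above, and 645, 378, 4186, 873, 1869 and 61 called genes, against 884, 461, 4672, 1109, 2139 and 109 without it. Same-numbered arrays were not pairs, and 2 of 12 arrays correlated best with their own number. The causes of these shifts were not tested.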
